A study of Mus musculus with 4 samples.

Results

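The genes described here are the mouse potassium channel genes, taken as all genes whose symbol starts with Kcn. Each row of the deposited tables is an exon trio, that is, a middle exon with both of its neighbors, and a trio was given a gene name when its strand, exon length and both intron lengths matched a transcript of the GENCODE annotation on the same chromosome. By this rule 69 Kcn genes had at least 1 trio, of 99 Kcn genes in the annotation. A trio needs 3 exons, and 24 of the 99 have fewer than 3 in every transcript. The 69 genes held 670 of the 228333 trios and 522 of the 192169 middle exons of the series. Of the 522 exons, 461 were labelled constitutive in the database, 35 cassette, 12 alternative 3′ splice sites, 10 alternative 5′ splice sites and 4 retained introns, and an exon with trios of different classes, such as a 92 nt exon of Kcnma1, counts in each. By channel type, grouped by gene symbol, the genes were 29 voltage-gated pore subunits, 12 auxiliary subunits, 10 two-pore channels, 9 inward rectifiers, 8 calcium- or sodium-activated channels and 1 noncoding gene, Kcnmb4os2. Kcnu1 was placed with the calcium- or sodium-activated channels by its symbol, not by what opens it.

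RNAseq of polyA+ RNA compared brains without the splicing regulator PTBP2 with those of wild-type littermates. At embryonic day 18 (E18), whole brains came from Ptbp2 NesKO embryos, in which both copies of floxed exon 4 of Ptbp2 are deleted by Cre under the nestin promoter, active in neural progenitors. At postnatal day 1 (P1), cortices came from Ptbp2 EmxKO pups, in which Cre is driven by the Emx1 promoter, active in progenitors of the dorsal forebrain, so that cells of other origin in the cortex keep the gene. All animals were of a mixed C56Bl/6:129S2 background, as the labels spell it. Each of the 4 groups is 1 library, made from the pooled brains of 2 embryos or from the cortex of 1 pup, so no difference between genotypes has a replicate check. The P1 libraries alone kept the strand. Between the E18 and P1 pairs, the age, tissue, Cre line and library protocol all change at once and cannot be told apart.

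The values rest on reads that cross exon junctions, of which the libraries held 48367448 to 83394001. Exon 4 of Ptbp2 was skipped in 100% of junction reads in the NesKO (95% Wilson interval, 98.5 to 100%) and 0.225% (0.0398 to 1.26%) in the E18 wild type. At P1 it was skipped in 82.6% (79.9 to 85.1%) in the EmxKO, and also in 31.5% (29.5 to 33.7%) in the library labelled wild type. Differences at P1 are therefore between a library with most of exon 4 lost and one with part of it lost. Of the markers of brain regions outside the cortex, 4 of 6 could be measured. Their summed level was 141 to 172 RPM (junction reads per 1000000 of the library) at E18 and 3.33 to 3.8 at P1, with Hoxb3 at 0 in both P1 libraries, and neuron markers summed to 1880 to 2990 in all libraries. These levels go with the labelled tissues.

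Potassium channels let potassium ions leave or enter cells and so set the resting potential of a neuron, the shape of its action potential and how often it fires. Their pores are formed by several large families of subunits, gated by voltage, by calcium or sodium inside the cell, by G proteins and other ligands, or open at rest, and many bind auxiliary subunits that change their gating and their transport to the membrane. Alternative splicing of channel transcripts is known to change gating, calcium sensitivity and partner binding, often through short inserts in the parts of the protein that lie inside the cell. PTBP2 binds CU-rich RNA next to many exons and mostly keeps them out of the mRNA of young neurons.

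Of the exons that differed between knockout and wild type, 4 coding inserts are printed first because they are described one by one below. Each is shown 5′ to 3′ in the mRNA with the cassette exon in capitals and 15 bases of each neighbor in lower case, from GENCODE release 21 transcripts on GRCm38. The build of the deposited tables, by the processing notes of the submitters, is mm9.
Kcnd3 57 nt exon: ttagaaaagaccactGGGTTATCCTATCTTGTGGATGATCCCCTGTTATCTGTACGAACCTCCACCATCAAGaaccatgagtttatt
Kcnip1 33 nt exon: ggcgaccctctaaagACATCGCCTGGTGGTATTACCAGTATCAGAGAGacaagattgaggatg
Kcnma1 81 nt exon: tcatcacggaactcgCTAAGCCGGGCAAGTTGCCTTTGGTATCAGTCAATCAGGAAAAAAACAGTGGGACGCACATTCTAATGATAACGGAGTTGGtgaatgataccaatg
Kcnma1 174 nt exon: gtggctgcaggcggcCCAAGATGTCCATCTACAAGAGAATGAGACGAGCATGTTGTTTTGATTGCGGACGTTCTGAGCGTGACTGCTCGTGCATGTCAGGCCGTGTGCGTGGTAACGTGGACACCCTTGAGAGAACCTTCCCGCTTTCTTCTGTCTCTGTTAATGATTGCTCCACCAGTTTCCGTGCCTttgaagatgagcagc

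All 4 lengths are multiples of 3, and none of the 4 exons holds a stop codon (0 each) in the annotated reading frame. In mm9, the Kcnd3 exon lies on the plus strand at chr3:105469880-105469936, as exon 6 of 8. The Kcnip1 exon is at chr11:33551540-33551572 on the minus strand, as exon 2 of 9. The Kcnma1 exons are on the minus strand at chr14:24155262-24155342 and chr14:24244789-24244962, as exons 25 and 20 of transcripts with 30 exons. The 174 nt exon is the one known as STREX, the stress axis-regulated exon. Pyrimidines made up 40.7% of the bases of the Kcnma1 81 nt exon, the lowest of the 4, and 59.6% of those of the Kcnd3 exon, the highest.

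Inclusion of an exon is given as PSI, the percentage of transcripts that include it, here the ratio that SpliceTrap estimated from exon and junction reads after its own correction. A difference of 10 PSI points was called a change, and an exon was measured at a stage when both of its libraries had at least 20 junction reads. Beside the PSI, a junction PSI was computed from the mean of both inclusion junctions, as its percentage of that mean plus the skipping reads. Its 95% Wilson interval covers counting error only, since PCR copies are not independent molecules. Fisher's exact test (two-sided) compared the reads of 2 libraries, not the genotypes, with adjustment over all cassette exons of the stage.

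At E18, 24 of the 35 Kcn cassette exons were measured. Of these, 5 (20.8%) changed, 4 higher and 1 lower in the NesKO, and over all 6748 cassette exons of the series the share was 10.9% (6.98% higher and 3.94% lower). Fisher's test passed for 2 of the 24, against 4.43% of all cassette exons, and both of these also changed by 10 points, against 2.77%. The median difference was 1.35 points for the Kcn exons and 0 for all cassette exons. At P1, 27 were measured, and 4 (14.8%) changed, 3 higher and 1 lower in the EmxKO, against 9.42% of all 6940 (6.83% higher and 2.59% lower). Fisher's test passed for 1, against 8.47%, and that exon also changed by 10 points, against 3.6%. The median difference at P1 was 0.5 points, against 0.2. These Kcn counts are 1 to 5 exons, and whether the shares differ from those of all cassette exons was not tested.

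At either stage 6 exons changed, and 3 of them did so at both stages and were higher in both knockouts, among them the 174 nt exon of Kcnma1. At E18, 6 of the 24 exons were under 10 PSI in both libraries, 8 were over 90 in both, and the other 10 lay between. At P1 these counts were 9, 10 and 8 of 27. Of the 5 changes at E18 and the 4 at P1, each was in an exon with a PSI between 10 and 90 in at least 1 library of the pair. The plot of 4 changed exons gives both measures of inclusion in each library. None of these 4 passed Fisher's test after adjustment at either stage.

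**Figure D1:**
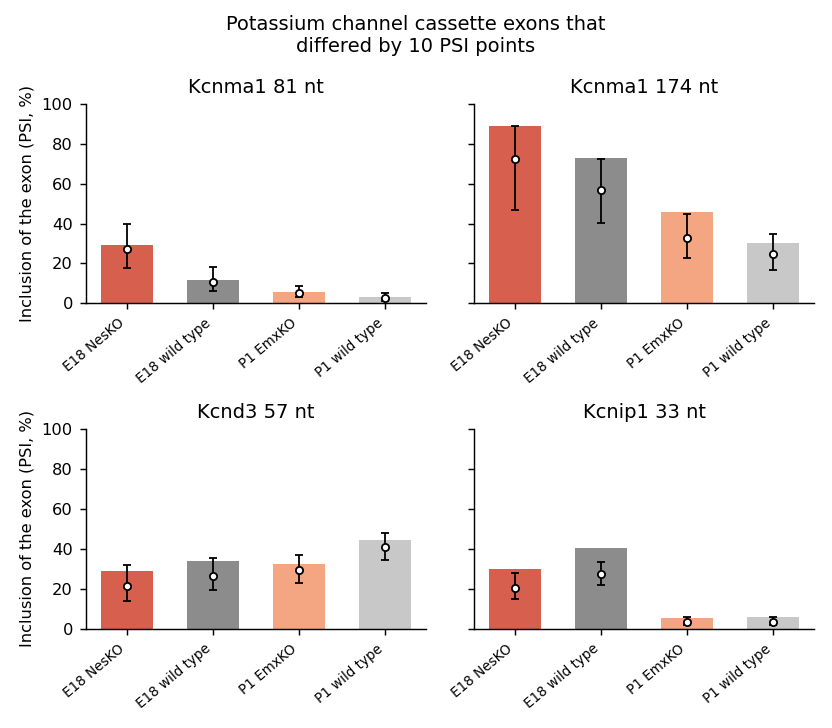
Inclusion of 4 changed Kcn cassette exons in the 4 libraries, in percent. Bars are the deposited PSI, and open circles are the junction PSI with its 95% Wilson interval, each from 1 library. Bars of the Kcnma1 174 nt exon are higher in the knockout than in the wild type at both stages, while those of Kcnip1 fall from 30.1 and 40.6 at E18 to under 6 at P1.

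Kcnd3 encodes Kv4.3, a pore subunit of the A-type current, which opens and inactivates fast below the firing threshold. Its 57 nt exon makes the long form of the channel. The exon was lower in both knockouts, with a PSI of 28.8 in the NesKO, 33.9 in the E18 wild type, 32.7 in the EmxKO and 44.4 in the P1 wild type. The P1 difference of -11.7 points passed the 10-point cutoff and the E18 difference of -5.1 did not. Their junction differences were -11.4 points (-21.0 to -1.4) at P1 and -4.9 (-16.7 to 7.9) at E18. Fisher's exact test did not pass after adjustment at P1 (adjusted p = 0.24), with 110 skipping reads in the EmxKO and 117 in its control.

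Of the other exons of pore subunits, the 106 nt exon of Kcna6 was at 5.5 to 8.1 PSI and the 27 nt exon of Kcnq5 at 98.6 to 99.9 in the 4 libraries. A 57 nt exon of Kcnq5 was measured at P1 only, with 0 inclusion reads beside 28 (EmxKO) and 36 (wild type) skipping reads, which allows a share of up to 10.7% and 8.33%.

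Among auxiliary subunits, 4 exons of 4 genes were measured at E18 and 5 at P1, and 1 changed. Kcnip1, Kcnip2 and Kcnip3 encode KChIPs, calcium-binding proteins that bind Kv4 channels and raise their number at the membrane. The 33 nt exon of Kcnip1 lengthens the variable N-terminus of KChIP1. Its PSI was 30.1 in the NesKO and 40.6 in the E18 wild type, against 5.3 and 5.7 at P1. The E18 difference of -10.5 points was -6.8 by junction reads (-15.2 to 2.2), with 116 and 166 skipping reads and an adjusted p of 0.75 by Fisher's exact test. At P1 the junction difference was 0 (-3.0 to 3.1). The exon was thus much lower in both P1 cortex libraries than in both E18 brain libraries.

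Kcnip2 has alternative exons of 96 and 54 nt, annotated as exons 2 and 3 of its transcripts. The 96 nt exon was lower in both knockouts by under 10 points, at 75.4 and 83.9 PSI at E18 and 58.7 and 65.3 at P1. Its junction differences were -6.9 points (-24.3 to 9.0) and -6.2 (-16.2 to 4.2). The 54 nt exon was measured at P1 only, at 52.3 in the EmxKO against 48.4. A 42 nt exon of Kcnab2, a beta subunit of Kv1 channels, was at 95.5 to 98.7 in all 4 libraries. Kcnmb2, a beta subunit of BK channels, has a 100 nt exon in its untranslated region that was at 0.1 to 2.8.

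Kcnma1 encodes the pore of the BK channel, which opens on calcium and depolarization together and shapes the end of the action potential. It held more measured cassette exons than any other Kcn gene. The 174 nt STREX exon, known to raise the calcium sensitivity of the channel, was at 88.6 PSI in the NesKO, 72.8 in the E18 wild type, 46.0 in the EmxKO and 30.2 in the P1 wild type. Its difference was 15.8 points at either stage, but on few reads, 25 and 51 at E18 and 85 and 111 at P1. The junction differences were 15.5 points (-14.4 to 38.9) and 8.1 (-6.1 to 22.6), and Fisher's exact test did not pass (adjusted p = 1.0 and 0.8). Both intervals include 0 and also the deposited difference. A neighboring 87 nt exon shares the skipping junction of STREX, with the same 43 and 67 skipping reads at P1, and its PSI there was 3.2 and 1.2.

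The 81 nt exon of Kcnma1 was at 29.2 PSI in the NesKO and 11.8 in the E18 wild type, and at 5.9 in the EmxKO and 3.0 in the P1 wild type. The junction difference at E18 was 16.8 points (4.5 to 29.8), from 45 and 88 skipping reads, with p = 0.01 and adjusted p = 0.16 by Fisher's exact test. At P1 it was 2.6 points (-0.8 to 6.4). The test of the difference between the stages gave an adjusted p of 1.0 for this exon, so its E18 and P1 changes were not shown to differ.

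The other measured cassette exons of Kcnma1 stayed near one end of the range. A 12 nt exon was slightly higher in both knockouts, at 94.9 and 90 at E18 and 96.3 and 92.3 at P1, with a junction difference of 5.0 points at P1 (-5.7 to 15). In all 4 libraries the second of its inclusion junctions in genomic order held 0 reads, against 26 to 150 on the first. In abundant exons labelled constitutive with no skipping read, the second junction held 14.9 to 23.5% of the reads of the first at 1 to 30 nt and 99.1 to 101% at 91 to 300 nt. For short exons the mean of both junctions, and with it the junction PSI, is thus lower than the first junction alone would give. How reads that cross both junctions were assigned was not tested. The 156 and 162 nt exons were at 93.9 to 99.9, and a 29 nt exon was at 2.9 to 6.7. A pair of 92 nt exons side by side gave opposite values. The first in genomic order (from base 24345758) was at 0.1 to 1.1 and the second (from base 24345947) at 99.9 in every library. These are the values of their cassette trios, matched to a transcript that holds both exons. The first exon also has a trio labelled constitutive, described below, in which its PSI was much higher at E18. Beside these, 9 and 419 nt exons of the SK channels Kcnn1 and Kcnn2, opened by calcium through calmodulin, were at 96.9 to 99.9 and 93.4 to 99.0.

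Of the two-pore channels, which carry the leak current at rest, only Kcnk2 (TREK-1) had a measured cassette exon. Its 118 nt exon was at 77.3 and 69.1 PSI at E18 and 76.0 and 71.6 at P1. The E18 difference of 8.2 points was 0.5 by junction reads (-8.0 to 9.2), with 26 and 25 skipping reads. Among the inward rectifiers, a 217 nt exon of Kcnj3, a subunit of the G protein-gated GIRK channel, was at 91.1 to 99.9, and a 109 nt exon of Kcnj6, another subunit of it, was at 1.0 and 0.1 at E18.

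In all, 28 cassette exons of 16 genes were measured at 1 or both stages, from 9 to 419 nt long, and 23 of the 28 lie in coding sequence. Length was a multiple of 3 in 18 of 28 (64.3%), against 50.3% of 7214 cassette exons of the series. The differences of the exons that did not change ran from -8.5 to 8.2 points at E18 (19 exons) and from -6.6 to 4.4 at P1 (23 exons). A further 7 cassette exons had too few reads at either stage, among them exons of Kcnc2, Kcnh7, Kcnj5 and Kcnt1. Another is a 9 nt exon of Kcnma1, at a PSI of 54.6 in the NesKO, 23.7 in the E18 wild type, 32.3 in the EmxKO and 7.6 in the P1 wild type. These values rest on 9, 12, 15 and 16 junction reads, and were not tested.

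For the 23 exons measured at both stages, the change in the NesKO and the change in the EmxKO were compared directly by a Wald chi-square test on the log odds ratios. None passed after Benjamini-Hochberg adjustment (0 of 23), against 1.45% of 6474 cassette exons. Without adjustment 1 passed, the 419 nt exon of Kcnn2. How many of all cassette exons pass without adjustment is not given here. A difference between the stages was therefore not shown for the Kcnn2 exon. That exon was at 99.0 and 95.6 PSI at E18 and at 93.4 and 97.6 at P1. Differences had the same sign at both stages in 13 of the 23, counting those of any size. The share over all cassette exons is not given here.

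**Figure D2:**
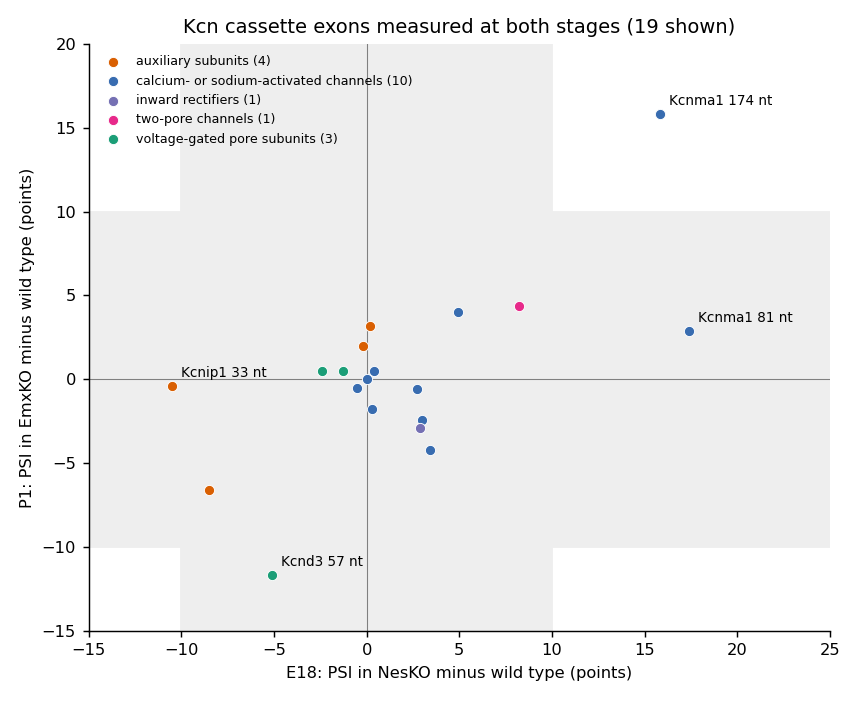
Difference in PSI between knockout and wild type for 19 of the Kcn cassette exons measured at both stages, E18 on the horizontal axis and P1 on the vertical axis, both in points, colored by channel type. Grey bands mark differences under 10 points. Of those drawn, the Kcnma1 174 nt exon alone lies beyond 10 points on both axes, and most others cluster near 0.

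Among Kcn exons of the other classes, 11 of 348 (3.16%) changed at E18 and 7 of 356 (1.97%) at P1, against 1.74% and 1.02% of all such exons. Most were labelled constitutive, 10 of 336 at E18 and 6 of 344 at P1, against 1.4% and 0.781%. A PSI of at least 95 in both libraries was found in 309 of the 336 and in 307 of the 344. Of the changed constitutive exons, 4 at E18 and 2 at P1 had no skipping read in either library, so that no junction read for skipping lies behind their difference. The largest of these was a 163 nt exon of Kcnd2, the Kv4.2 gene, at 99.9 PSI in the NesKO and 58.5 in the E18 wild type. With 0 skipping reads beside 81 and 98 reads on one inclusion junction and 0 on the other, 3 reads against the mean of both allow skipping of up to 7.41% and 6.12%, which is less than the deposited difference. A 250 nt exon of Kcnh3, at 61.5 and 78.6 at E18, likewise had 0 skipping reads, which allows up to 4.14% and 3.97%. The constitutive trio of the first Kcnma1 92 nt exon went from 99.9 in the NesKO to 59.6 in the E18 wild type, again with 0 skipping reads, which with only 25 and 31 reads allows up to 24.0% and 19.4%.

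Skipping reads did back a difference in Kcnt1, which encodes Slack, a channel opened by sodium. Its 63 nt exon (chr2:25768175-25768237 in mm9, plus strand, exon 30 of 32, coding) was at 90.1 PSI in the NesKO and 76.6 in the E18 wild type, with 28 and 63 skipping reads. The junction difference was 16.7 points (9.2 to 24.0), and the adjusted p by Fisher's exact test over all exons labelled constitutive was 0.033. It was the 1 Kcn exon of this class to pass at E18, against 0.0613% of the class. At P1 the exon was at 95.9 and 94.9, with 8 and 6 skipping reads and a junction difference of 1.3 points (-5.1 to 9.3). Whether the stages differ was not tested for this class. The sequence of the exon is shown because the difference is carried by skipping reads although the database labels it constitutive.
Kcnt1 63 nt exon: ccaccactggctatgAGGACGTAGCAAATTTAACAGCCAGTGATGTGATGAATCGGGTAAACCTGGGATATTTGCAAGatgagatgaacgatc

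Another exon of Kcnt1, of 84 nt, was lower in the EmxKO, at 86.1 PSI against 99.9 in the P1 wild type, with 10 and 0 skipping reads. Its junction difference was -16.9 points (-28.5 to -1.7), and it did not pass Fisher's exact test (adjusted p = 1.0). Kcnc1 had a 189 nt exon at 99.9 in the EmxKO and 48.4 in the P1 wild type, where 3 skipping reads stood beside 28 inclusion reads, so that its junction difference was 17.6 points (3.2 to 41.0), and it did not pass Fisher's exact test after adjustment (p = 0.023, adjusted p = 1.0). At E18 this exon was at 99.9 in both libraries. Kcnh7 (426 nt) at 99.9 and 74.0 and Kcnj9 (878 nt) at 66.2 and 45.8 also differed at E18, each with at most 2 skipping reads a library. At P1, 2 of the 344 exons labelled constitutive passed Fisher's test, against 0.145% of the class, but 0 of the 344 both passed and changed by 10 points.

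An alternative 5′ splice site of Kcnn1, the SK1 gene, was used more in both knockouts. The 33 nt that it adds to the exon (chr8:73385564-73385596 in mm9, minus strand) were at 86.2 PSI in the NesKO, 70.7 in the E18 wild type, 64.1 in the EmxKO and 41.4 in the P1 wild type. It was the 1 of 3 Kcn 5′ sites measured to change at each stage, against 7.58% of all 5′ sites at E18 and 5.29% at P1. Reads were few, with 5, 11, 23 and 16 for the shorter form. Its junction differences of 14.6 points (-8.6 to 34.9) and 18.6 (-4.1 to 38.6) did not pass Fisher's exact test (adjusted p = 1.0 at both stages). No alternative 3′ site (0 of 5 at each stage, against 8.37% and 5.47%) and no retained intron (0 of 4, against 11.4% and 6.63%) changed. A 287 nt intron of Kcnt1 was at 43.9 to 52.4 in all 4 libraries, and a 1990 nt intron of it was at 73.3 and 82.7 at E18.

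Between the wild-type libraries, 8 of 24 Kcn cassette exons (33.3%) differed by 10 points, 3 higher and 5 lower in P1 cortex, against 20.8% of 6726 cassette exons (8.98% higher and 11.8% lower). The P1 library labelled wild type also skipped Ptbp2 exon 4 in 31.5% of junction reads, against 0.225% at E18, so the pair differs in Ptbp2 as well as in age, tissue and protocol, which cannot be told apart. Kcnma1 STREX went from 72.8 to 30.2 and the Kcnip1 exon from 40.6 to 5.7. Both Kcnip2 exons were also lower in P1 cortex, and the Kcnd3 exon was higher (33.9 to 44.4). In 7 of the 8 both knockout libraries could be compared too, and the EmxKO stood to the NesKO in the same direction in all 7. The knockout pair also differs in age, tissue and protocol. The same count over all cassette exons is not given here, so whether this is particular to Kcn exons was not tested. STREX, lower in P1 cortex, was above the wild type in both knockouts.

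**Figure D3:**
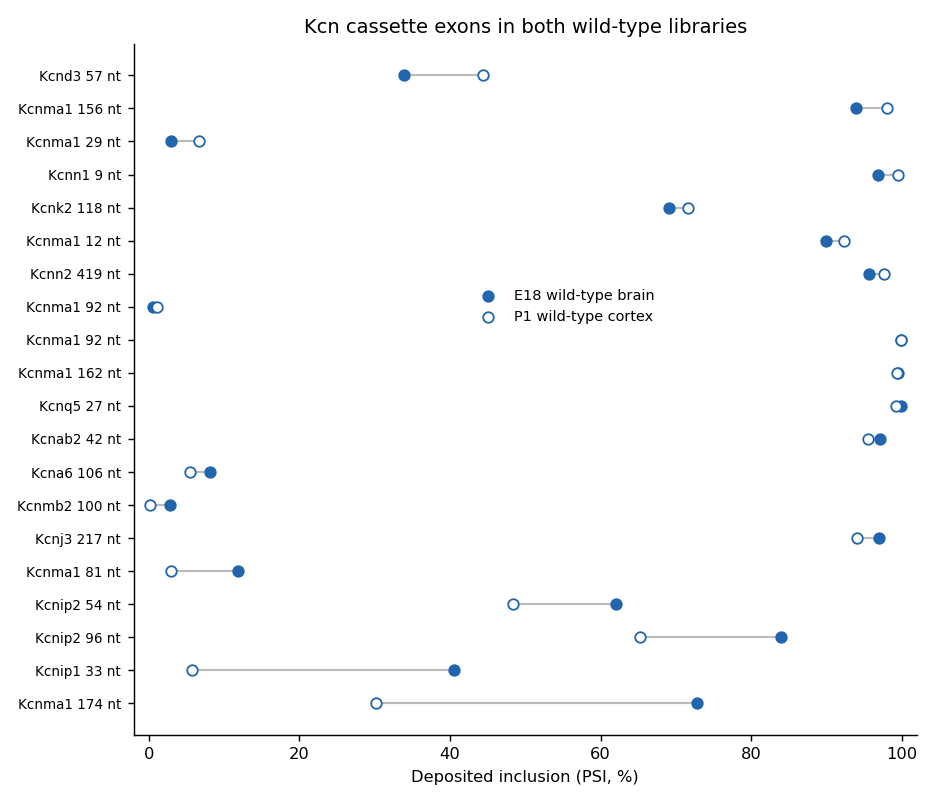
Deposited PSI, in percent, of 20 of the Kcn cassette exons measured in both wild-type libraries, ordered by the difference. Filled circles are E18 brain and open circles P1 cortex, and exons of 92 nt in Kcnma1 appear for each of the pair. Kcnma1 174 nt (72.8 to 30.2) and Kcnip1 33 nt (40.6 to 5.7) have the longest lines, and exons near 0 or 100 hardly move.

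A second list of 26 genes held proteins that bind, place or traffic potassium channels, together with the related Hcn channels. Trios were found for 22, and 29 cassette exons of 10 genes were measured at E18. Of these, 2 were higher and 3 lower in the NesKO by 10 points, against 6.98% and 3.94% of all cassette exons, and 4 passed Fisher's test, against 4.43%. At P1, 5 of 33 were higher and 1 lower in the EmxKO, against 6.83% and 2.59%, and 2 passed, against 8.47%. Ank2 and Ank3 encode ankyrins, and ankyrin-G, from Ank3, holds ion channels at the axon initial segment. A 27 nt exon of Ank3 was higher in both knockouts, at 86.7 and 71.1 PSI at E18 (29 and 71 skipping reads, adjusted p = 0.0067, Fisher's exact test) and at 72.3 and 55.8 at P1 (178 and 197 skipping reads, adjusted p = 3.5e-05). At E18, a 99 nt exon of Ank2 rose from 59.3 in the wild type to 92.2 (adjusted p = 1.6e-49, exact test), and another 99 nt exon of it fell from 59.1 to 39.8 (adjusted p = 1.8e-13, exact test). At P1 the first was at 60.5 in the EmxKO against 56.3 (adjusted p = 0.41, exact test) and the second at 42.1 against 44.0 (adjusted p = 0.87, exact test). Whether the stages differ is not reported for these exons. Adam22, a receptor for Lgi proteins that bears on Kv1 channels, had a 62 nt exon at 35.1 in the EmxKO and 2.3 in the P1 wild type, from 21 and 34 reads (adjusted p = 0.036, exact test). It lies within a 195 nt exon of the same gene, which also covers a separate 108 nt exon. Dlg1, a PDZ scaffold, had a 99 nt exon lower in both knockouts, at 46.1 and 56.7, then 49.2 and 60.2, without passing the test (adjusted p = 1.0 and 0.49, exact). A 66 nt exon of Dlg4 passed it at E18 with a difference of 2 points, at 91.1 and 93.1.

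Gene levels were taken as reads on the distinct junctions of a gene, scaled to 1000000 such reads of the library (RPM), for 53 Kcn genes with at least 20 reads in both libraries of a stage. In whole tissue, fewer cells of a type and less RNA per cell cannot be told apart in such levels. At E18, 2 genes differed by 2-fold, both lower in the NesKO, and over all genes the share was 1.79% (0.964% lower). Both encode Kv3 channels, but the Kv3 gene Kcnc1 was higher in the NesKO, at 6.68 RPM against 5.68 (log2 ratio 0.23). Kcnc4 was at 7.59 RPM in the NesKO against 17.9 (log2 ratio -1.24, from 367 and 898 reads), and Kcnc2 was at 0.641 and 1.53 (-1.26), from 31 and 77 reads. The median log2 ratio of the Kcn genes at E18 was -0.22, against -0.05 for all genes. Of the 25 voltage-gated pore genes measured, 18 were lower and 7 higher in the NesKO, with a median log2 ratio of -0.34. Neuron markers (6 of 6 measured) summed to 1880 in the NesKO against 2190, and 1 of the 6 was higher. Progenitor markers (4 of 5 measured) summed to 523 and 459, with 2 of the 4 higher in the NesKO. The part of these shifts in the Kcn levels was not tested.

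At P1 the direction was mixed. Kcnh5, of the ether-a-go-go family, was at 1.26 RPM in the EmxKO against 3.25 (log2 ratio -1.36), and Kcnk4 was at 1.03 and 0.48 (1.11), from 86 and 40 reads. These were 2 of 53, against 8.89% of all genes, of which 0.84% were higher and 8.05% lower in the EmxKO. The median log2 ratio was 0.19 for the Kcn genes and 0.04 for all genes, and 17 of 26 voltage-gated pore genes were higher. Neuron markers summed to 2890 in the EmxKO against 2990, with 2 of 6 higher. Among them Tubb3 was at 1530 RPM against 1210, while Map2 was at 369 against 637 and Snap25 at 64.3 against 127. Microglia markers (3 of 4 measured) summed to 48.4 and 31.5, with 2 of the 3 higher in the EmxKO. The part of these markers in the Kcn levels was not tested. Some genes kept one direction at both stages. Kcnab1, a beta subunit of Kv1 channels, was lower in both knockouts (log2 ratio -0.98 and -0.85), and so was Kcnd2 (-0.71 and -0.78). Others were higher in both, among them Kcnk4 (0.81 and 1.11) and Kcnt1 (0.29 and 0.79). The share of all genes that kept one direction is not given here.

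**Figure D4:**
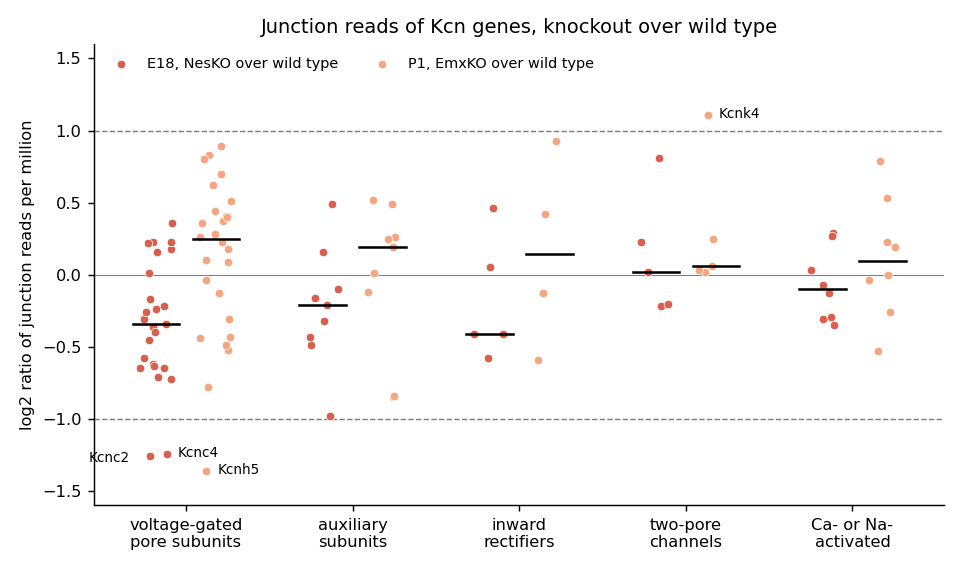
Log2 ratio of junction RPM, knockout over wild type, for the Kcn genes with at least 20 reads in both libraries of a stage, by channel type, 1 point per gene. Black bars are medians and dashed lines mark 2-fold. Voltage-gated pore subunits have a median of -0.34 at E18, where Kcnc2 and Kcnc4 lie below the lower line, and 0.24 at P1.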

How the data were processed

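RNAseq of polyA+ RNA (TruSeq, 100 bp paired end) was processed by the authors with CASAVA, TopHat, Cufflinks and SpliceTrap on mm9, per the labels. For each exon trio the authors deposited a fraction, the inclusion ratio with and without SpliceTrap's correction, and the read count of each of 3 junctions, 1 table per library.

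The ratio after correction, times 100, was the PSI. The trio with the most reads over the 4 libraries stood for each middle exon, and 20 junction reads were required in both libraries compared. Trios were named by exon and intron lengths in GENCODE M21 (GRCm38), alternative splice sites by both introns and retained introns by intron and exon lengths, with no coordinates converted. The rule for named exons was all cassette exons that changed, the 10 largest changes of other classes and up to 10 unchanged exons of intermediate PSI. Further exons and genes were chosen after their values were seen. Counts are over all members, but the values of some members are not reported here. Fisher's exact tests were adjusted by the Benjamini-Hochberg method within a class and stage, which compares libraries, and differences of junction PSI have Newcombe intervals. The stage test added 0.5 to each count. The members and lists were chosen with earlier results of these data known. Tests were checked on simulated reads drawn as binomial counts. Such reads hold no spread between animals or libraries, so the check does not bear on that spread. Computations used python 3.11.15 with pandas 2.3.3, numpy 2.4.6, scipy 1.17.1 and matplotlib 3.10.9. A planned search of flanking introns for CU-rich motifs was not run, since an mm9 genome was not used here.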

Additional observations from a re-analysis of the deposited data

How the results depend on the processing

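No paired analysis was possible because each group is 1 library, and no library could be left out. The 5 cassette exons that changed at E18 became 8 with a minimum of 10 junction reads, 0 at a cutoff of 20 points and 2 when an adjusted Fisher p below 0.05 was also required. The 4 at P1 became 2 with PSI from junction reads, 0 at 20 points and 1 with the Fisher test. The 11 exons of other classes at E18 became 6 with a minimum of 50 reads, 20 with the ratio before the correction, 6 with junction reads, 4 at 20 points and 1 with the Fisher test. The 7 at P1 became 2 with a minimum of 50 reads, 2 at 20 points and 0 with the Fisher test. Alternatives added after the data were seen gave 7 at E18 when at least 1 skipping read was required, and 6 at E18 and 4 at P1 with the larger inclusion junction. The 2 cassette exons that passed Fisher's test at E18 became 0 when adjusted over cassette and constitutive exons together and 1 with the smaller junction. With the larger junction (added), the 1 at P1 became 2. The 0 exons whose change differed between stages became 1 by unadjusted p (added). The 2 gene levels past 2-fold became 1 at each stage with a minimum of 100 reads (added). The cause of these shifts was not tested. No difference of 10 points turned its direction. Smaller ones did, among them with the larger junction Kcnk2 at E18 (8.2 to -0.7 points) and Kcnt2 at P1 (0.6 to -1.1), and with junction reads Kcnj9 at P1 (-2.1 to 5.3). Of 44 values under each alternative, 6 moved with junction reads, 7 with the larger junction, 2 before the correction and 0 with the trio with the most skipping reads. With 1 library per group, spread between animals could not be measured, and few reads limit STREX and the Kcnn1 site.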
